A study of Solanum lycopersicum with 36 samples.

Results

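Described here are 10 stress-responsive WRKY transcription factors of tomato, across all 12 groups of a leaf RNA-seq study. The members are the 10 genes of a fixed list, found in the table of 29285 genes by their identifiers: WRKY33A (Solyc09g014990), WRKY33B (Solyc06g066370), WRKY39 (Solyc03g116890), WRKY40 (Solyc06g068460), WRKY45 (Solyc08g067360), WRKY46 (Solyc08g067340), WRKY41 (Solyc01g095630), WRKY53 (Solyc08g008280), WRKY80 (Solyc03g095770) and WRKY81 (Solyc09g015770). All 10 passed the filter on low values in both experiments. The plants were of the dwarf cultivar Micro-Tom, about a month old, and the sampled tissue was the third and the fourth leaf. In one experiment SGT2ox stood beside its own wild type, and in a second, independent one SGT1ami stood beside another wild type set. Each genotype was sampled at 0, 3 and 24 h with 3 libraries per group. SGT1 and SGT2 are known as sterol glycosyltransferases, which attach a sugar to membrane sterols, and the suffixes are read as overexpression and as an artificial microRNA. The sources used here give neither the promoters nor the number of independent lines. The study concerned cold tolerance, and part of its plants went to 4 °C. The labels of a library, however, give a time and no temperature. A difference from 0 h is therefore called a change with time, and cold and handling cannot be told apart. At 3 h the hour of the day cannot be told apart from them either, whereas 24 h, if timed as labelled, shares the hour of 0 h.

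WRKY proteins are plant transcription factors named after the amino acids of their DNA-binding domain. They bind a promoter element called the W-box, and MAP kinase cascades, wounding, pathogens and hormones switch many of their genes on within minutes to hours. The family is divided by structure. WRKY33 proteins belong to group I, whose members carry a pair of WRKY domains. The relatives of Arabidopsis WRKY40 form group IIa, to which tomato WRKY39, WRKY40, WRKY45 and WRKY46 are assigned in published work, and WRKY41, WRKY53, WRKY80 and WRKY81 are assigned to group III. The names come with the list, since no table used here pairs the identifiers with names. Of the 10 names, 6 (WRKY40, WRKY41, WRKY45, WRKY46, WRKY80 and WRKY81) each matched 1 RefSeq gene symbol on the chromosome that the identifier carries. RefSeq lists WRKY33A as a synonym of a gene on chromosome 6, whereas the list gives that name to an identifier of chromosome 9, so the identifiers decide which WRKY33 gene is meant. WRKY46 and WRKY45 are direct neighbours on chromosome 8 in the RefSeq annotation of SLM_r2.1, with 0 genes between them. The deposited values include 1 identifier placed between both, and it reached at most 3.66 normalised reads in any library.

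The libraries held 36602841 to 43742623 reads recovered from the deposited values. Replicates lay close together, and same-group libraries still differed by more than sampling noise. The labels call the triplicates biologically independent, and p-values measure only the spread between these samples, estimated for each gene over all groups of a fit. As a check of the labels, Solyc09g061860, noted from memory as SGT2 and tied to that name by no table used here, was higher in SGT2ox by 4.74, 5.06 and 5.0 on the log2 scale in 0, 3 and 24 h leaves. Solyc06g007980, noted in the same way as SGT1, differed between SGT1ami and wild type by -1.69 at 0 h, -1.33 at 3 h and only -0.11 at 24 h (limma, SE 0.035 each). If that identity holds, the last 3 libraries lack the low level of the SGT1ami libraries at 0 and 3 h. Whether their label is right was not tested, and they are named below only by that label (labelled SGT1ami, 24 h). Leaf identity could not be checked against named marker genes, because no identifier was tied to a description. In whole leaves, fewer cells of a type and less RNA per cell cannot be told apart.

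**Figure D1:**
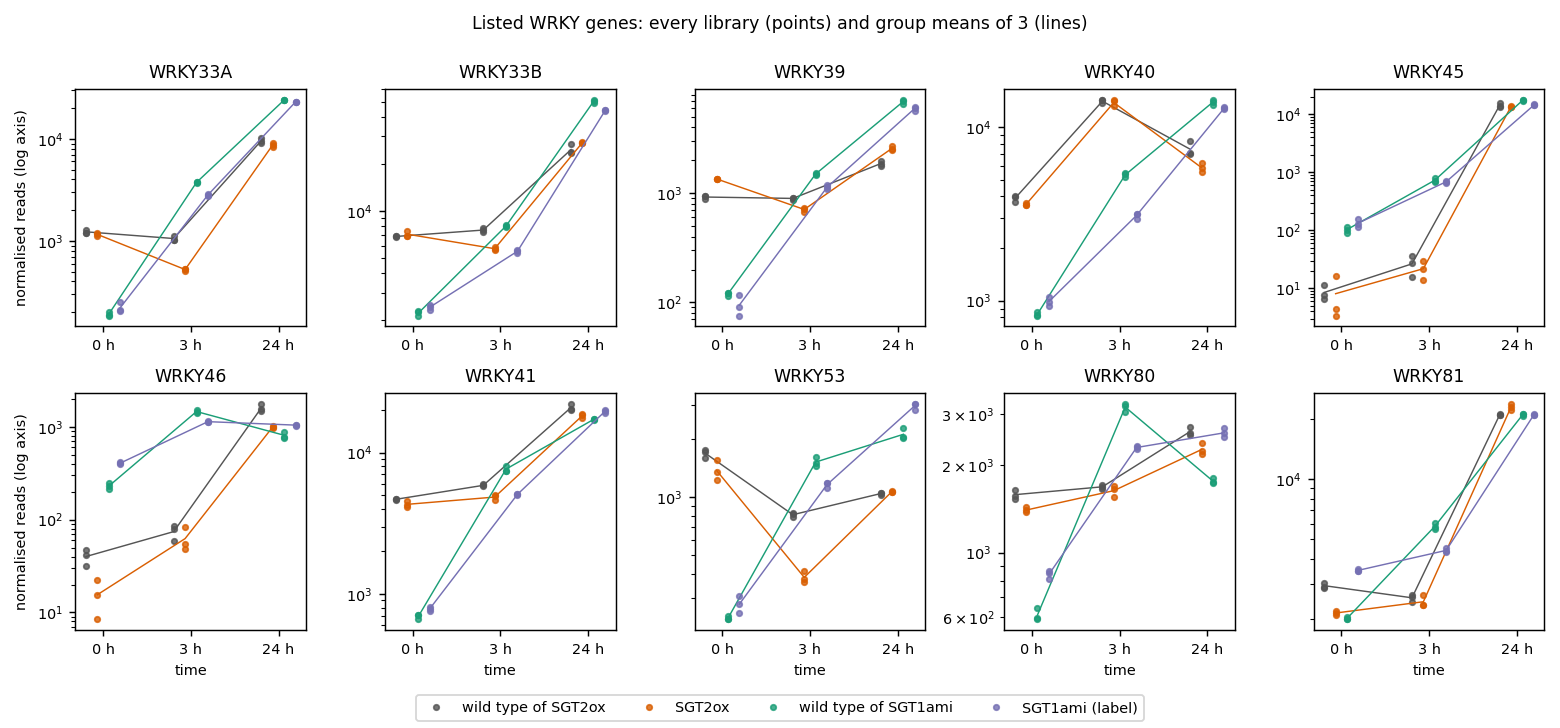
Normalised reads (log axis, a separate range for each gene) of the 10 genes at 0, 3 and 24 h, which are spaced evenly; points are libraries and lines join the means of 3. In the SGT1ami experiment every gene starts lower than it is at 3 h, whereas in the SGT2ox experiment WRKY53 starts near 1689 in wild type and falls, and wild type WRKY45 is at most 36.1 up to 3 h and at least 13322 at 24 h.

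How did the listed genes change with time in wild type leaves? In the wild type of SGT1ami all 10 rose at 3 h, where 30.9% of the 22286 genes tested were called higher (adjusted p at most 0.05, limma). Each of the 10 rose at least 2-fold, as 10.5% of all genes did. The median log2 fold change of the members was 2.67, beside -0.02 over all genes. At 24 h all 10 were again above 0 h (42.6% of all genes), with a median of 4.29 beside 0.03. Between 3 and 24 h 8 rose further (42.5% of all genes) and 2 fell back (38.8%), though WRKY53 among the 8 was not called with library totals (0.08 in place of 0.48). In the wild type of SGT2ox the early response was mixed: 5 were higher at 3 h (35% of 22399 genes) and 3 lower (31.3%), with a median of 0.11 beside 0.01. At 24 h 9 were higher (39.5% of all genes) and WRKY53 was lower (39.6%), with a median of 2.00 beside -0.01. Between 3 and 24 h 9 rose there (39%) and WRKY40 fell (40.8%). All 10 were higher in the wild type of SGT1ami at 3 and at 24 h. Counts of genes higher in both wild types therefore only restate those of the wild type of SGT2ox. The same 9 genes were thus higher at 24 h in both wild types, where 33.1% of the 21851 genes tested in both were. At 3 h 5 genes were higher in both (20.7% of all genes), namely WRKY33B, WRKY40, WRKY41, WRKY45 and WRKY46. With library totals as the scaling WRKY33B (-0.34) and WRKY41 (-0.15) were instead lower at 3 h for wild type leaves of the SGT2ox experiment. WRKY80 was lower there too (-0.39), which was otherwise called only without replicate 1 at 0 h, and then as higher (0.12). That scaling moved the median of all genes at 3 h to -0.45 in this wild type and to -0.24 in the other, and over all 27 comparisons to between -0.59 and 0.27.

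The group I genes were highest at 24 h in both wild types, and in that of SGT1ami they had already risen at 3 h. WRKY33 is known in Arabidopsis for resistance to necrotrophic fungi, and a tomato WRKY33 gene has been linked to cold tolerance. WRKY33A stood at 185, 187 and 202 normalised reads in the 3 wild type libraries of SGT1ami at 0 h, at 3751, 3794 and 3678 at 3 h, and at 24061, 24077 and 24104 at 24 h. No library of one time overlapped with those of another, and the 24 h mean was 126-fold that of 0 h (log2 change 6.97, SE 0.05, adjusted p = 9.5e-37, limma). The SGT2ox experiment gave another course, and the same gene stood there in wild type at 1284, 1207 and 1190 at 0 h, at 1125, 1015 and 1023 at 3 h, and at 10186, 9557 and 9154 at 24 h. There it fell slightly at 3 h (log2 change -0.22, SE 0.052, adjusted p = 0.00056, limma) and rose 7.85-fold by 24 h (2.97, SE 0.052, adjusted p = 2.8e-26, limma). WRKY33B went from 2218 ± 72.0 through 8017 ± 156 to 50538 ± 1040 in the wild type of SGT1ami (mean ± SD, n = 3). In that of SGT2ox it went from 6865 ± 82.4 through 7550 ± 253 to 24723 ± 1752. Its 3 h step in the latter was small (log2 change 0.14, SE 0.042, adjusted p = 0.0062, limma), and with TMM scaling it was not called (0.09). The 24 h rise was 22.8-fold in the first and 3.60-fold in the second.

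Among the group IIa genes WRKY45 had the largest change from 0 to 24 h in both wild types. Tomato WRKY45 is known for making roots more susceptible to nematodes. It stood in the wild type of SGT2ox at 11.3, 6.47 and 7.63 normalised reads at 0 h, at 15.7, 36.1 and 27.2 at 3 h, and at 15755, 13322 and 13720 at 24 h. In that of SGT1ami its values were 91.3, 114.6 and 102.2, then 708.5, 690.0 and 784.1, and then 16907, 17289 and 17652. The groups of different times did not overlap in either wild type, and the gene ended at 14266 and 17282 on average from starting levels 12.1-fold apart. The rise by 24 h was 168-fold in the wild type of SGT1ami (log2 change 7.39, SE 0.080, adjusted p = 7.6e-33, limma) and 10.59 on the log2 scale in that of SGT2ox (SE 0.34, adjusted p = 2.5e-20, limma), where the starting level rests on few reads. WRKY46, its neighbour, which in tomato is known to weaken resistance to grey mould, had another time course. It peaked at 3 h in the wild type of SGT1ami, with 228, 215 and 247 normalised reads at 0 h, 1428, 1504 and 1458 at 3 h, and 880, 768 and 787 at 24 h. Its fall between 3 and 24 h there passed the test (log2 change -0.85, SE 0.061, adjusted p = 3.5e-13, limma). The WRKY46 values in the wild type of SGT2ox were 41.2, 46.9 and 32.0, then 84.6, 79.3 and 59.2, and then 1782, 1470 and 1576, so that its highest level came at 24 h. The step at 3 h there (0.88, SE 0.24, adjusted p = 0.0022, limma) was not called with library totals (0.41, adjusted p = 0.13, limma).

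WRKY40 peaked at 3 h in both genotypes of the SGT2ox experiment, alone among the listed genes. In Arabidopsis WRKY40 is known as a repressor of abscisic acid responses and of basal defence. It stood at 3691, 3938 and 3991 normalised reads in the wild type of SGT2ox at 0 h, at 14402, 14327 and 13735 at 3 h, and at 24 h the values were 8306, 7043 and 7090. The 3 h libraries lay above all others of that wild type, and the gene rose 3.65-fold by 3 h (log2 change 1.87, SE 0.052, adjusted p = 2e-21, limma) and fell again by 24 h (-0.92, SE 0.052, adjusted p = 5.9e-15, limma). In the wild type of SGT1ami it went on rising, from 837 ± 24.3 through 5317 ± 134 to 13990 ± 421 (mean ± SD, n = 3), and the step from 3 to 24 h was 1.39 (SE 0.039, adjusted p = 6.6e-23, limma). WRKY39, which confers resistance to bacteria, drought and salt when overproduced in tomato, rose from 120 ± 3.65 through 1499 ± 31.2 to 6930 ± 309 in the wild type of SGT1ami. In that of SGT2ox it was at 923 ± 38.5 at 0 h and 896 ± 21.3 at 3 h, with overlapping libraries (log2 change -0.04, SE 0.052, adjusted p = 0.5, limma), and at 1864 ± 99.2 at 24 h. With library totals that 3 h value became -0.52 and was called.

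The group III genes shared no single course. WRKY53, whose Arabidopsis namesake promotes leaf senescence, stood at 1710, 1596 and 1762 normalised reads in the wild type of SGT2ox at 0 h, at 815, 824 and 791 at 3 h and at 1044, 1056 and 1027 at 24 h. It fell by 1.06 at 3 h and by 0.70 at 24 h on the log2 scale (SE 0.069 each, adjusted p = 2.2e-13 and 7.4e-10, limma), and it was the single listed gene below its starting level at 24 h. The WRKY53 values in the wild type of SGT1ami were 241, 232 and 232, then 1442, 1612 and 1500, and then 2025, 2047 and 2273. There it was 6.45-fold higher at 3 h and 8.99-fold higher at 24 h (log2 changes 2.68 and 3.16, SE 0.064 each). WRKY41 rose 11-fold by 3 h and 24.8-fold by 24 h in the wild type of SGT1ami, from 694 ± 29.0 to 7648 ± 398 and 17208 ± 120 (mean ± SD, n = 3). In that of SGT2ox it was at 4669 ± 58.9, 5866 ± 97.1 and 20836 ± 1202. WRKY80 peaked at 3 h in the wild type of SGT1ami, at 3179 ± 107 against 609 ± 30.8 at 0 h and 1765 ± 33.2 at 24 h. In that of SGT2ox its 3 h value was not called (0.09, adjusted p = 0.096, limma) and its 24 h value was 1.65-fold that of 0 h.

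WRKY81, which in tomato is known to restrain drought tolerance, reached about the same level at 24 h in both wild types. It stood at 21187, 20971 and 21080 normalised reads in the wild type of SGT2ox and at 20711, 21177 and 21234 in that of SGT1ami. The libraries of the 2 wild types overlapped (log2 difference -0.003, SE 0.038, adjusted p = 0.95, limma), but the difference was called with library totals (-0.34) and with edgeR (-0.09). From 0 h it had risen 7.20-fold and 10.5-fold. At 3 h it had fallen by 0.20 in the wild type of SGT2ox (SE 0.044, adjusted p = 0.00025, limma) and had risen 2.89-fold in that of SGT1ami (log2 change 1.53, SE 0.029, adjusted p = 4.5e-26, limma).

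**Figure D2:**
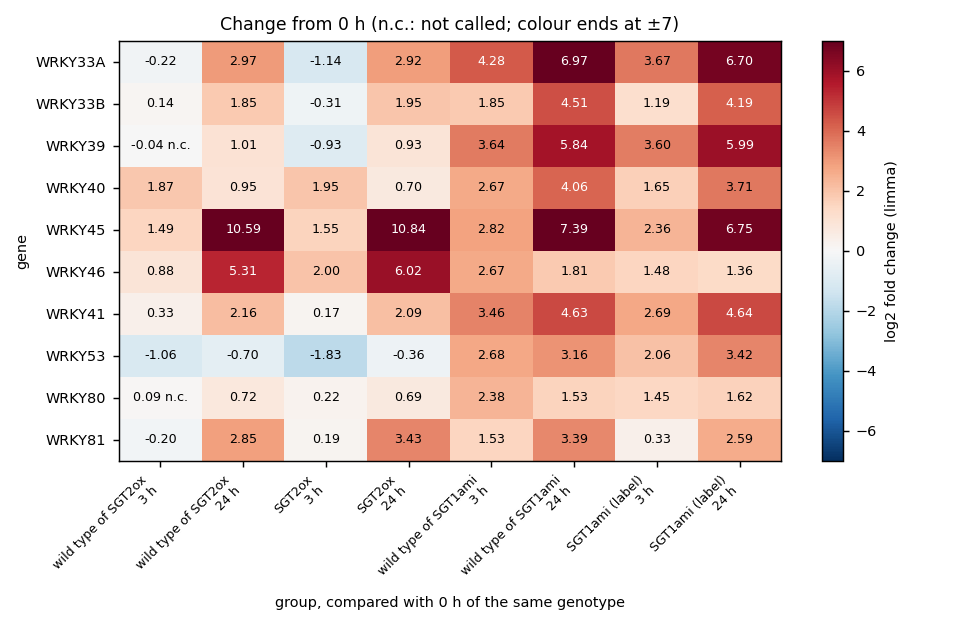
Log2 fold change from 0 h of the same genotype (limma) for the 10 genes (vertical axis) at 3 and 24 h in the 4 genotypes (horizontal axis). All values of the SGT1ami experiment are above 0, from 0.33 to 7.39, and in the SGT2ox experiment the 3 h values lie between -1.83 and 2.00; with library totals WRKY33B, WRKY41 and WRKY80 in wild type and WRKY41, WRKY80 and WRKY81 in SGT2ox turn negative at 3 h.

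The starting levels set both experiments apart. At 0 h 8 of the 10 genes were lower in the wild type of SGT1ami than in that of SGT2ox (31.6% of 22945 genes tested) and 2 were higher (34.8%). The lower ones included WRKY39 (7.72-fold), WRKY53 (7.18-fold), WRKY41 (6.73-fold), WRKY33A (6.41-fold) and WRKY40 (4.63-fold), and the higher ones were WRKY45 (12.1-fold) and WRKY46 (5.74-fold). At 3 h 9 were higher in the wild type of SGT1ami (32.4% of all genes) and WRKY40 alone was lower (31.4%), by 1.41 on the log2 scale (SE 0.048, adjusted p = 1.4e-26, limma). The small excess of WRKY33B among these (0.09, adjusted p = 0.04, limma) was not called with no filter on low values, nor without replicate 1 or 3 of the wild type of SGT2ox or replicate 2 or 3 of that of SGT1ami (0.06 to 0.09). At 24 h 5 were higher (39.8%) and 3 lower (32%), and WRKY45 (0.28) was called as higher only with edgeR (0.19), with DESeq2 and in a fit of the groups compared. The change from 0 h to 3 h itself was more positive in the wild type of SGT1ami for all 10 (22.8% of all genes). Over 24 h it was more positive for 8 (27.4%) and more negative for 2 (25.6%), WRKY45 and WRKY46. The wild types were grown in separate experiments, so experiment and wild type set cannot be told apart.

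**Figure D3:**
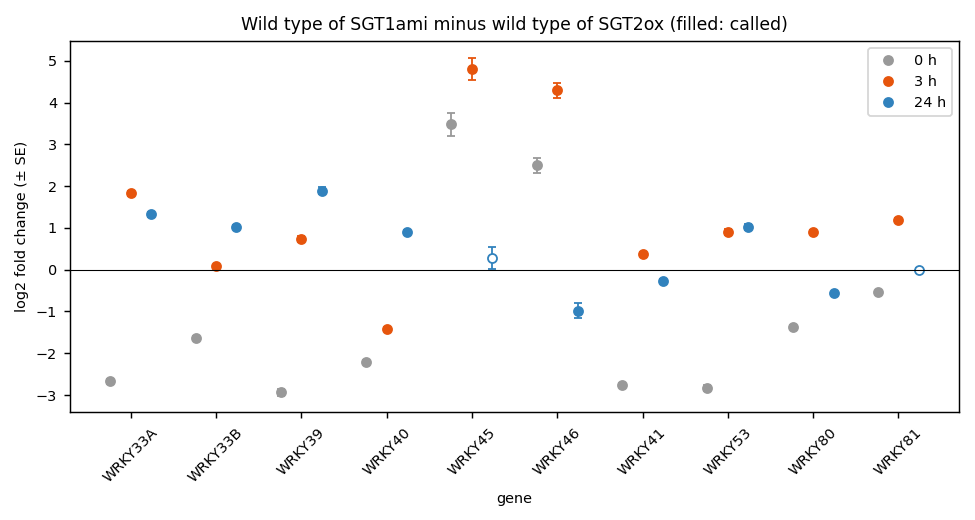
Log2 fold change ± SE of the wild type of SGT1ami against that of SGT2ox for the 10 genes (horizontal axis) at 0, 3 and 24 h; filled points passed an adjusted p of 0.05. At 0 h all genes but WRKY45 and WRKY46 lie below 0, and at 3 h all but WRKY40 lie above it.

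Did SGT2ox differ from its wild type? At 3 h 5 listed genes were lower in SGT2ox (10.1% of all genes tested) and 0 were higher (7.25%). WRKY53 stood at 413, 361 and 377 normalised reads in SGT2ox at 3 h and at 815, 824 and 791 in wild type. WRKY33A stood at 532, 531 and 508 in SGT2ox, against 1125, 1015 and 1023. Neither pair of groups overlapped, and both genes were about 2-fold lower (log2 changes -1.08, SE 0.069, adjusted p = 4.6e-12, and -1.01, SE 0.052, adjusted p = 5.1e-14, limma). WRKY33B (-0.40), WRKY39 (-0.34) and WRKY41 (-0.28) were lower by less. WRKY40, WRKY45, WRKY46, WRKY80 and WRKY81 were not called at 3 h, with values from -0.27 to -0.03. For WRKY45 and WRKY46 the SE was 0.34 and 0.24, so that small differences were not detectable.

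Within SGT2ox the 3 h libraries gave 4 falls from 0 h (31.6% of all genes) and 6 rises (33.2%). The falls were those of WRKY53 (-1.83), WRKY33A (-1.14), WRKY39 (-0.93) and WRKY33B (-0.31), and WRKY46 rose by 2.00. WRKY45 was among the rises, but its 0 h libraries (16.5, 3.37 and 4.35 normalised reads) overlapped with those of 3 h (30.0, 14.1 and 21.1). WRKY40 rose 3.87-fold, and its change minus that in wild type was 0.08 (SE 0.074, adjusted p = 0.52, limma). With library totals this difference (0.22) and that of WRKY80 (0.27) were called as more positive in SGT2ox. The small rises of WRKY80 (0.22), WRKY81 (0.19) and WRKY41 (0.17) turned into falls with library totals (-0.12, -0.16 and -0.17). The change to 3 h was more negative in SGT2ox than in wild type for 4 genes (11.2% of all genes), WRKY33A, WRKY33B, WRKY39 and WRKY53, and more positive for 2 (6.9%), WRKY46 and WRKY81. The call of WRKY46 (1.12, SE 0.34, adjusted p = 0.02, limma) did not hold in a fit of those groups alone. It was also lost without replicate 2 of SGT2ox at 0 h (0.76), without replicate 1 of SGT2ox at 3 h (0.89), and without replicate 2 of wild type at 0 h (1.00) or replicate 3 at 3 h (0.97).

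At 0 and 24 h the line differed in both directions. At 0 h WRKY39 was higher in SGT2ox (14% of all genes), with 1341, 1356 and 1360 normalised reads against 942, 948 and 878 in wild type. These libraries did not overlap (log2 change 0.55, SE 0.052, adjusted p = 6.2e-09, limma). Another 5 genes were lower at 0 h (11.5% of all genes), and with library totals WRKY33A (-0.17) and WRKY40 (-0.19) were called lower as well. WRKY46 differed most, with 15.6, 8.43 and 22.6 against 41.2, 46.9 and 32.0 (-1.39, SE 0.24, adjusted p = 6.8e-05, limma), followed by WRKY81 (-0.46) and WRKY53 (-0.30). The other 2, WRKY80 (-0.18) and WRKY41 (-0.12), were smaller. That of WRKY41 ended without replicate 1 or 2 of SGT2ox or any 1 replicate of wild type (-0.13 to -0.09), and that of WRKY80 without replicate 1 of wild type (-0.15). WRKY45 was not called at 0 h (-0.32), but without replicate 1 of SGT2ox, which held 16.5 normalised reads against 3.37 and 4.35, it was (-0.94, adjusted p = 0.013, limma). At 24 h all 10 genes of SGT2ox differed from 0 h as in wild type, with 9 higher (40.3%) and WRKY53 lower (40.8%), and compared with 3 h 9 were higher (40.1%) and WRKY40 was lower (41.2%). Between the genotypes at 24 h 3 were higher in SGT2ox (15.1%) and 5 lower (17%). WRKY39 was again higher (0.47, SE 0.052, adjusted p = 8.2e-08, limma) and WRKY40 lower (-0.35, SE 0.052, adjusted p = 7.1e-06, limma). The count of 8 fell to 5 without replicate 3 of SGT2ox and without replicate 1 or 2 of wild type at 24 h. WRKY33A (-0.14) was lost without replicate 1 or 3 of SGT2ox or replicate 1 or 2 of wild type, and WRKY33B (0.15) without replicate 2 of wild type. WRKY46 (-0.68) was lost without any 1 library but replicate 2 of wild type, and WRKY81 (0.13) without any 1 but replicate 1 of SGT2ox. With no filter on low values WRKY33A and WRKY46 were not called, nor was WRKY81 with library totals (0.11). The WRKY46 libraries did not overlap, and its call held with edgeR, with DESeq2 and in a fit of those groups alone. From 0 to 24 h the change was more positive in SGT2ox than in wild type for 2 genes (10% of all genes), WRKY53 and WRKY81, and more negative for WRKY40 (13.3%). WRKY46 (0.71) was called as more positive only with DESeq2 (0.68) and without replicate 3 of SGT2ox at 0 h (1.02). WRKY33B (0.10) was so called only with library totals (0.16) and without replicate 1 of wild type at 24 h (0.16). For WRKY81 the difference was 0.59 (SE 0.063, adjusted p = 7.5e-08, limma), and it went from 2134 ± 49.1 to 23078 ± 849 (mean ± SD, n = 3).

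**Figure D4:**
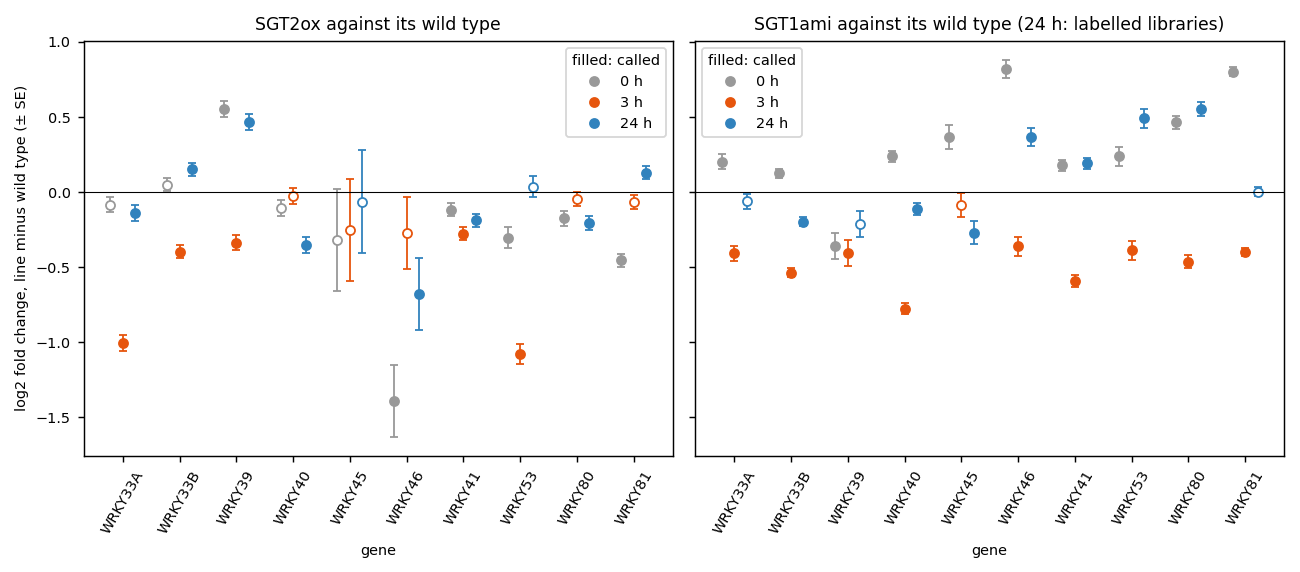
Log2 fold change ± SE of each line against its own wild type (vertical axis) for the 10 genes at 0, 3 and 24 h; filled points passed an adjusted p of 0.05. At 3 h every point of both lines lies below 0, with 5 called in SGT2ox and 9 in SGT1ami; with library totals WRKY40 (0.03) and WRKY80 (0.01), not called in SGT2ox, lie just above it.

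Did SGT1ami differ from its wild type? At 0 h 9 of the 10 genes were higher in SGT1ami (10.6% of all genes tested) and WRKY39 was lower (8.53%), each by less than 2-fold. WRKY46 stood at 419, 394 and 407 normalised reads against 228, 215 and 247 in wild type. WRKY81 stood at 3559, 3468 and 3463 against 1998, 1984 and 2038. These groups did not overlap (log2 changes 0.82, SE 0.061, adjusted p = 3.4e-11, and 0.80, SE 0.029, adjusted p = 1.2e-17, limma), and WRKY80 (0.47) followed. The others were small, between 0.12 and 0.37 where higher and -0.36 for WRKY39, whose libraries overlapped. When only the 6 libraries compared were fitted, 6 of the 10 were called, and WRKY33A, WRKY39, WRKY45 and WRKY53 were not. The call of WRKY53 also ended without replicate 2 of SGT1ami at 0 h (0.17), and that of WRKY33A without replicate 3 (0.11).

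At 3 h 9 genes were lower in SGT1ami (14.3% of all genes) and 0 higher (13.8%), and of these 9 WRKY39 had been lower at 0 h too while the other 8 had been higher. WRKY40 stood at 3161, 2976 and 3180 normalised reads against 5432, 5349 and 5171, and it was 1.71-fold lower (log2 change -0.78, SE 0.039, adjusted p = 7.4e-15, limma). WRKY41 stood at 5016, 5094 and 5093 against 7372, 8104 and 7467 (-0.59, SE 0.037, adjusted p = 7.4e-13, limma). WRKY33B (-0.54), WRKY80 (-0.46), WRKY33A (-0.41), WRKY39 (-0.40), WRKY81 (-0.40), WRKY53 (-0.39) and WRKY46 (-0.36) were lower too, with no overlap between the libraries of both genotypes. WRKY45 was not called (-0.09, SE 0.080, adjusted p = 0.48, limma). These 9 calls also held with the 24 h libraries of that label left out of the fit. Each line was compared with wild type libraries of its own, and 5 genes, WRKY33A, WRKY33B, WRKY39, WRKY41 and WRKY53, were lower at 3 h in both lines, where 4.15% of 21851 genes were. Since 9 of the 10 genes were lower in SGT1ami, most of the 5 lower in SGT2ox had to be among them.

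All 10 genes still rose in SGT1ami between 0 and 3 h (30.5% of all genes), with a median log2 fold change of 1.86. The rise was smaller than in wild type for 9 of them (11.3% of all genes had a more negative change in the line). WRKY81 rose by 0.33 in SGT1ami and by 1.53 in wild type, a difference of -1.20 (SE 0.042, adjusted p = 8.9e-18, limma). WRKY46 (-1.18) and WRKY40 (-1.01) also rose less by at least 2-fold. WRKY39 rose 12-fold in SGT1ami and 12.5-fold in wild type, and the difference of its changes was not called (-0.04, SE 0.12, adjusted p = 0.87, limma).

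The 24 h libraries of that label were higher than SGT1ami at 0 h for all 10 genes (42.7% of all genes), with a median of 3.95. Against wild type these labelled libraries were higher for 4 genes (6.91% of all genes) and lower for 3 (15.2%). WRKY80 stood at 2689, 2508 and 2577 normalised reads against 1757, 1737 and 1802 (0.55, SE 0.044, adjusted p = 3.7e-10, limma), and WRKY53 at 3051, 3039 and 2830 against 2025, 2047 and 2273 (0.49, SE 0.064, adjusted p = 1.3e-06, limma). These libraries did not overlap. WRKY46 (0.37) and WRKY41 (0.19) were the other higher ones, and WRKY45 (-0.27), WRKY33B (-0.20) and WRKY40 (-0.11) the lower ones. WRKY39 (-0.21) was called as lower only with edgeR, with DESeq2 and in a fit of those groups alone. WRKY33A (-0.06) was called as lower only in that last fit, and WRKY81 (0.003) as higher only with library totals (0.09). With library totals neither WRKY45 (-0.18) nor WRKY40 (-0.02) was called. The call of WRKY45 ended without replicate 2 of the labelled libraries or replicate 3 of wild type (-0.26 and -0.25), and that of WRKY40 without any 1 of the labelled libraries or replicate 1 or 3 of wild type (-0.12 to -0.09). From 0 h to 24 h as labelled the change was more negative than in wild type for 6 genes (15.4% of all genes), most for WRKY81 (-0.80) and WRKY45 (-0.64), and more positive for WRKY53 (8.11%). This last call (0.25) was lost with no filter, in a fit of those groups alone, and without any 1 library but replicate 2 of SGT1ami at 0 h and replicate 3 of either genotype at 24 h (0.18 to 0.26). WRKY39 (0.15) was called as more positive only without replicate 1 of SGT1ami at 0 h (0.32), and WRKY80 (0.09) only with library totals (0.18). Compared with 3 h the labelled libraries were higher for 9 genes (42.2%). WRKY46 was not called (-0.12, adjusted p = 0.063, limma), but it was called lower with library totals (-0.46), TMM scaling (-0.22), edgeR (-0.21), DESeq2 (-0.14) and in a fit of those groups alone (-0.12). WRKY80 was higher by 0.17, which became -0.17 with library totals and was not called with TMM scaling (0.07) or edgeR (0.08). In wild type both had fallen over the same interval, by 0.85 each.

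Across the 12 groups each gene had its own order of levels. For WRKY33A, WRKY33B, WRKY39, WRKY41, WRKY45 and WRKY81 the 4 group means of 24 h lay above all others. WRKY40 was highest in the wild type of SGT2ox at 3 h (14155 ± 366), which overlapped with the wild type of SGT1ami at 24 h (13990 ± 421), and that in turn with SGT2ox at 3 h (13897 ± 541). WRKY46 was highest in the wild type of SGT2ox at 24 h (1610 ± 159), which overlapped with the wild type of SGT1ami at 3 h (1463 ± 38.3). WRKY53 was highest in the 24 h libraries labelled SGT1ami (2973 ± 125), apart from all others, and WRKY80 in the wild type of SGT1ami at 3 h (3179 ± 107). The lowest group was the wild type of SGT1ami at 0 h for WRKY33A, WRKY33B, WRKY40, WRKY41, WRKY53, WRKY80 and WRKY81, SGT1ami at 0 h for WRKY39, and SGT2ox at 0 h for WRKY45 and WRKY46. The highest mean was 2144-fold the lowest for WRKY45, 126-fold for WRKY33A, 104-fold for WRKY46 and 73.4-fold for WRKY39, and between 5.22-fold (WRKY80) and 30.0-fold (WRKY41) for the other 6. Of 11 neighbouring pairs of groups per gene, between 2 and 5 had overlapping libraries.

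Likeness of these profiles was described with Pearson's r over the 12 group means of log2(value + 1), which share libraries and experiments. WRKY33A and WRKY33B were close to each other (r = 0.96), and each was the listed gene nearest to the other. WRKY39 and WRKY41 were likewise each other's nearest (0.94), and so were WRKY45 and WRKY81 (0.95). WRKY46 was least like WRKY40 (0.06), although both are of group IIa, and nearest to its neighbour WRKY45 (0.89). WRKY40 was nearest to WRKY41 (0.82). Many other genes were as close: among 18402 other genes whose mean over all libraries was 50 normalised reads or more, WRKY33B came at place 110 from WRKY33A and WRKY81 at place 297 from WRKY45, while WRKY39 came at place 20 from WRKY53.

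**Figure D5:**
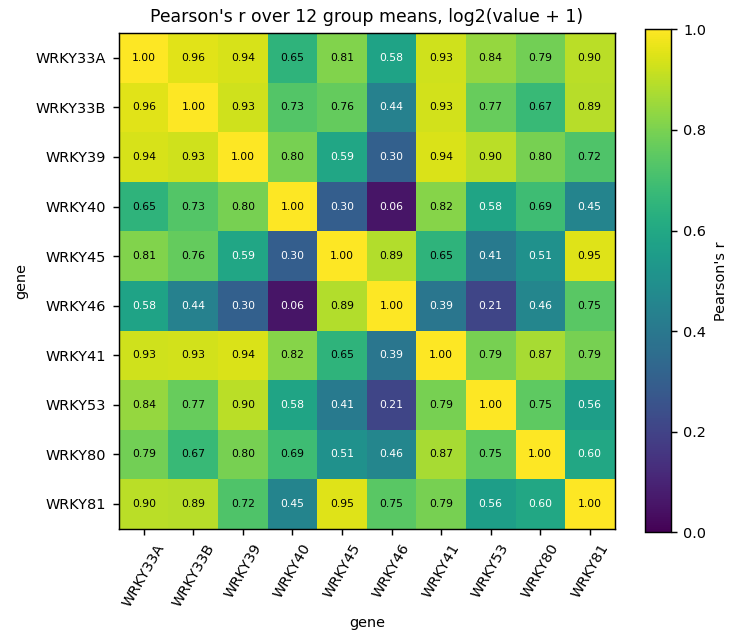
Pearson's r between the profiles of the 10 genes (both axes) over the 12 group means of log2(normalised reads + 1). WRKY33A, WRKY33B, WRKY39 and WRKY41 form a block of values from 0.93 to 0.96. WRKY46 is at 0.58 or below with all genes except WRKY45 (0.89) and WRKY81 (0.75), and WRKY40 is at 0.30 with WRKY45 and 0.45 with WRKY81.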

How the data were processed

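Per the values, the deposited signal consists of whole reads per gene that the authors had divided by 1 factor for each library (0.779 to 1.311): 100% of values were whole multiples of the smallest within 0.01 reads. Tools listed without roles in the submitters' processing notes are Trimmomatic, STAR, featureCounts and DESeq2. The sources used here give no version, genome build, annotation or strand setting, so overlapping or antisense genes and near-identical copies may share reads. Even numbers made up 78.8% of values from 2 to 11 reads, so reads may not be independent fragments; the cause was not tested. Such scaling takes most genes as unchanged. In the wild type of SGT2ox, however, 35% of the genes tested were called higher at 3 h and 31.3% lower. Whether the scaling suits such changes was not tested.

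Values were tested with limma 3.58.1 (R 4.3.3, mean-variance trend) on log2(value + 1), which understates changes of low genes. Both experiments were fitted separately (18 libraries, 6 groups, 12 residual degrees of freedom) for genes with at least 10 in at least 3 libraries, and the wild types were compared in a fit of all 36. Benjamini-Hochberg adjustment ran over all genes tested, with calls at 0.05. Counts recovered from the deposited values were tested with edgeR 4.0.16 and DESeq2 1.42.0 as alternatives, beside TMM, library totals, a pseudocount of 5, no filter, the compared groups only, a replicate block and leaving out each library. The fit was tested on simulated data. The report names all 10 members, and outside them Solyc06g007980 and Solyc09g061860 for the labels, the identifier between WRKY46 and WRKY45, chosen for its place, and at most 2 identifiers of like profile. The RefSeq table of 41476 genes held 0 of the identifiers, so other WRKY genes and their kinases are not analysed here, and no sequence was at hand. The members and lists were chosen with earlier results of these data known.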

Additional observations from a re-analysis of the deposited data

Results flagged for a closer look

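The changes from 0 h differed between groups, by limma's test of the difference itself, for these listed genes. The values are differences of log2 fold changes.

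SGT2ox minus wild type over 3 h gave -0.92 for WRKY33A, -0.45 for WRKY33B, -0.89 for WRKY39, 1.12 for WRKY46, -0.78 for WRKY53 and 0.39 for WRKY81. Over 24 h the called differences were -0.24 for WRKY40, 0.34 for WRKY53 and 0.59 for WRKY81. The call of WRKY40 ended with library totals (-0.18), without replicate 3 of SGT2ox at 24 h (-0.20), and without replicate 1 of wild type at 0 h (-0.21) or at 24 h (-0.17).

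SGT1ami minus wild type over 3 h gave -0.61 for WRKY33A, -0.66 for WRKY33B, -1.01 for WRKY40, -0.45 for WRKY45, -1.18 for WRKY46, -0.62 for WRKY53, -0.93 for WRKY80, -1.20 for WRKY81 and -0.77 for WRKY41. For the libraries labelled SGT1ami at 24 h the differences were -0.27 for WRKY33A, -0.32 for WRKY33B, -0.35 for WRKY40, -0.64 for WRKY45, -0.46 for WRKY46, 0.25 for WRKY53 and -0.80 for WRKY81. That of WRKY53 rested on most of its single libraries, and that of WRKY33A not with library totals (-0.18).

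The wild type of SGT1ami minus that of SGT2ox over 3 h gave 4.50 for WRKY33A, 1.72 for WRKY33B, 0.80 for WRKY40, 3.68 for WRKY39, 1.33 for WRKY45, 1.79 for WRKY46, 3.74 for WRKY53, 2.29 for WRKY80, 1.73 for WRKY81 and 3.13 for WRKY41. Over 24 h it gave 4.00 for WRKY33A, 2.66 for WRKY33B, 3.12 for WRKY40, 4.83 for WRKY39, -3.20 for WRKY45, -3.49 for WRKY46, 3.86 for WRKY53, 0.81 for WRKY80, 0.54 for WRKY81 and 2.47 for WRKY41.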

How the results depend on the processing

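Of 270 results for single genes (10 genes in 27 comparisons), 227 kept their side of the threshold and, where called, their direction under every alternative run. When only those groups were fitted, WRKY45 in SGT2ox against wild type at 0 h did not pass the filter and gave no value. The replicate block and a pseudocount of 5 changed none of the 270 calls. With the replicate block the wild type of SGT2ox at 3 h still had 8 genes called and SGT1ami at 3 h still 9 below wild type. Numbers of replicates did not pair the libraries (correlations of deviations from -0.05 to 0.05 over 45 pairs of groups and numbers in each experiment). Library totals reversed 7 values at 3 h or between 3 and 24 h: WRKY33B (-0.34), WRKY80 (-0.39) and WRKY41 (-0.15) in the wild type of SGT2ox, WRKY80 (-0.12), WRKY81 (-0.16) and WRKY41 (-0.17) in SGT2ox, and WRKY80 (-0.17) for labelled 24 h against 3 h in SGT1ami. The cause was not tested. For SGT1ami against wild type at 0 h, 6 in place of 10 genes were called when only those groups were fitted, with fewer samples behind the spread. Leaving out 1 library at a time gave 5 to 6 called genes for SGT2ox against wild type at 24 h, where 8 were called with all. Low counts limit WRKY45 and WRKY46 in the SGT2ox experiment before 24 h.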

Other observations

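Of genes outside the list, the profiles closest to a listed gene over the 12 group means were those of Solyc02g072080.1 with WRKY33B (Pearson's r = 0.996) and of Solyc05g012770 with WRKY45 (0.995). No table used here names these identifiers.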
